A study of Arabidopsis thaliana with 4 samples.

Results

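The data describe the RNA structure of 9 circadian clock genes of Arabidopsis thaliana, as read by SHAPE on nuclear RNA: CCA1, LHY, RVE8, PRR9, PRR7, PRR5, TOC1, GI and ELF3. Every row of the 4 deposited tables whose identifier starts with one of their locus numbers was taken. That gave 77 rows, namely 17 introns of the 24782 scored in vivo, 58 introns of the 34255 scored after deproteinization, and 2 poly(A) windows of the 6605 scored in vivo. None of the 1068 deproteinized poly(A) windows belonged to them. Taken over both conditions, the rows covered 59 distinct introns of the 43359 in the series.

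The samples were seedlings of the accession Col-0, 5 days old. NAI is a SHAPE reagent: it attaches to the ribose of nucleotides that are free to move, and reverse transcriptase stops beside the adduct. In the in vivo condition intact seedlings were exposed to NAI at a final concentration of 100 mM and nuclei were isolated afterwards. In the deproteinized condition the nuclei were lysed and their proteins extracted before the RNA met NAI. Each condition had a DMSO control without NAI, and the authors merged biological replicates into 1 profile per condition. There was therefore no spread between samples, so values, counts and medians are given as a description with no test, beside the same quantity over all introns. The hour at which seedlings were collected was not given in the sources used here, which matters for genes whose transcripts cycle through the day.

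The plant clock is a network of transcription factors that repress one another in sequence. The MYB-like proteins CCA1 and LHY act around dawn, the pseudo-response regulators PRR9, PRR7, PRR5 and TOC1 repress them in turn through the day and evening, and ELF3 belongs to the evening complex that represses at night. GI is a large plant-specific protein that stabilizes the F-box protein ZTL, and RVE8 is a MYB-like activator of evening genes. Many of these pre-mRNAs are known to be spliced in alternative forms, among them CCA1, LHY and PRR9.

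The number of scored introns differed widely between the genes. In the RefSeq annotation (TAIR10.1) the reference transcripts of the 9 genes held 64 introns, and 44 of these had a row in at least 1 condition. GI (AT1G22770, chromosome 1, plus strand) had all 13 of its introns, TOC1 (AT5G61380, chromosome 5, plus) all 5 and ELF3 (AT2G25930, chromosome 2, plus) all 3. RVE8 (AT3G09600, chromosome 3, plus) had 7 of 8, LHY (AT1G01060, chromosome 1, minus) 7 of 9, PRR5 (AT5G24470, chromosome 5, minus) 4 of 5, PRR9 (AT2G46790, chromosome 2, plus) 3 of 6 and CCA1 (AT2G46830, chromosome 2, plus) 2 of 7. PRR7 (AT5G02810, chromosome 5) had no row in any table and is not described further. The other 15 introns were alternatives to these or, in 1 case in CCA1, lay in a reference exon, and 10 of the 59 introns were not in RefSeq.

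Coverage by condition split the genes. Only LHY with 10 introns, CCA1 and ELF3 with 3 each, and PRR9 with 1 were scored in vivo, whereas all 8 genes with rows were scored after deproteinization. GI, RVE8, PRR5 and TOC1, with 14, 10, 5 and 7 introns, were thus seen in the deproteinized condition only, and 16 introns could be set side by side. Of the 58 deproteinized introns, 54 began with GU and ended with AG, and 4 were GC-AG introns, 1 of GI and 3 of RVE8. Member introns were 69 to 1180 nt long, with a median of 111.5 nt after deproteinization against 104 nt over the table.

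Scores have no physical unit. They were scaled within each row from 0 to 1, so that about 5.28% of the nucleotides of a deproteinized row had the top score of 1 and 5.26% had 0 (medians over rows). A score therefore ranks a nucleotide within its own intron and says nothing about the level of the transcript. The position −1 is the last nucleotide of the exon before the 5′ splice site (5′ss), and +1 is the first of the intron. The U1 snRNP base-pairs with the nucleotides on both sides of this site.

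The sites that carry the results are printed 5′ to 3′ from the RefSeq genome (TAIR10.1, whose coordinates are those of TAIR10), with 10 nt of exon, 10 nt of intron and the nucleotides −2 and −1 in capitals. The first set holds GI introns with high and low scores at −1, followed by the rival sites of CCA1 intron 4.
GI intron 1, chr1:8061972-8061991, plus: ttactttcAGgtctttcttc
GI alternative to intron 1, chr1:8062074-8062093, plus: taagttctTGgtaaatcact
GI intron 2, chr1:8062553-8062572, plus: cattgctgAGgtacttgata
GI intron 9, chr1:8064487-8064506, plus: cagaaaacAGgcatggttcc
CCA1 intron 4, distal site, chr2:19246375-19246394, plus: tttctccaAGgtaaaatcgg
CCA1 intron 4, proximal site, chr2:19246742-19246761, plus: agccatagAGgtaaaccatt

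The second set holds the introns of LHY and ELF3 whose score at −1 differed by at least 0.3 between the conditions.
LHY intron 1, chr1:37559-37578, minus: actctcaaGGgtataacagt
LHY intron 2, chr1:37363-37382, minus: attcgtttGGgtgaggcttt
LHY intron 5, chr1:36614-36633, minus: cttcacaaAGgtaagttgat
LHY intron 8, chr1:34391-34410, minus: ctccgaagAGgtaaaacaaa
ELF3 intron 3, chr2:11062059-11062078, plus: actgattaAGgtaaagtcat

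The third set holds intron 2 of the pseudo-response regulators, which interrupts similar sequence in 3 of them, and the alternative site of PRR9.
PRR9 intron 2, chr2:19233313-19233332, plus: cctgtcatAAgtacgatggt
PRR9 alternative to intron 2, chr2:19233321-19233340, plus: aagtacgaTGgtgatcccct
PRR5 intron 2, chr5:8357894-8357913, minus: cctgttatAAgtacgttgat
TOC1 intron 2, chr5:24676142-24676161, plus: cctgtgatAAgtaagctgtg

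GI, the gene with most scored introns, had the top score at −1 in nearly all of them. The score was 1 in 12 of its 14 deproteinized rows. The exceptions were intron 2 with 0.338 and the alternative 5′ss of intron 1 with 0.542. Over the whole table, 31.9% of introns had the top score at −1, and 49.7% had at least 0.6, the bound used here for a high score. All 14 had a G at −1, and over all introns with G there 33.6% had the top score and the mean was 0.599.

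The mean at −1 over the 14 GI introns was 0.920 ± 0.207 (SD over introns), against 0.338 ± 0.0536 for their flanks, taken as −20 to −3 and +1 to +20. The score exceeded the flanks in 13 of 14 introns, against 67.5% of all introns. At −2 the mean over GI introns was 0.386 ± 0.250 (SD over introns), against 0.436 over the table, and 2 of 14 introns at 0.6 or above. Its GC-AG intron, intron 9, had the same score of 1 at −1 as the GU introns around it.

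Among the 894 genes with at least 10 deproteinized introns scored at −1, the median gene had 30.8% of them at the top score and GI 85.7%. In 2 other genes the share was as high or higher, and 4 had a higher mean. RVE8, the other clock gene with 10 such introns, had 30.0% at the top score but a mean of 0.820, with 32 genes above it. Because GI had no intron row in vivo, its pattern was seen in 1 condition only.

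**Figure D1:**
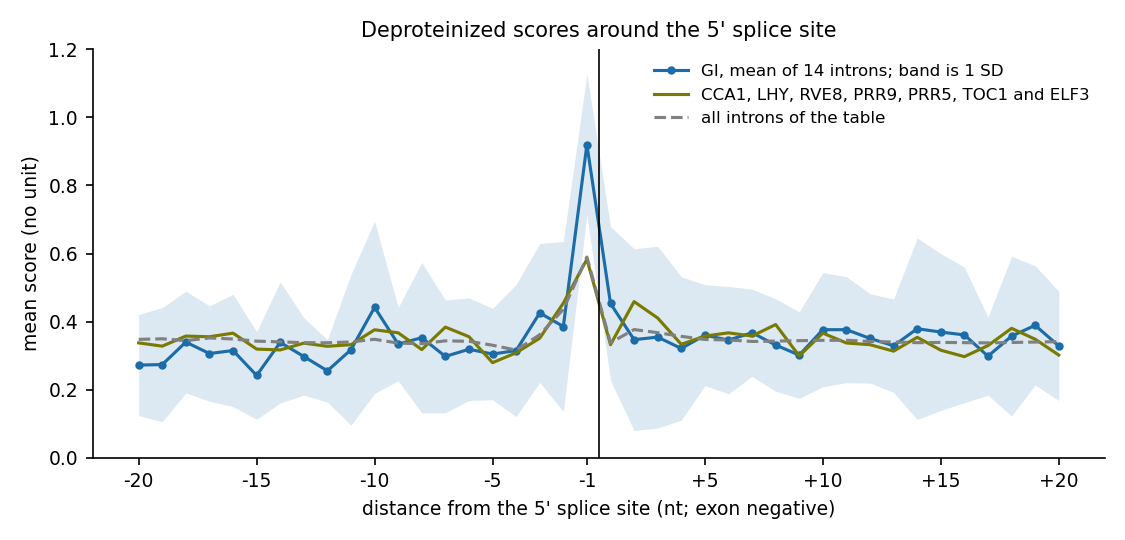
Mean deproteinized score (no unit) by distance from the 5′ss in nucleotides, exon positions negative. The blue line is GI (14 introns, band 1 SD over introns), the olive line the other 7 clock genes and the dashed line all introns; at −1 GI reached 0.920, the other genes 0.583 and all introns 0.590.

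The other clock genes fell on both sides of the background at −1. After deproteinization 8 of 10 RVE8 introns scored at least 0.6, as did 5 of 7 in TOC1 and 3 of 5 in PRR5. The count was 2 of 9 in LHY, 1 of 5 in PRR9, 1 of 4 in ELF3 and 1 of 3 in CCA1. Over all clock introns it was 33 of 57, or 57.9% against the 49.7% of the table, and without GI it was 21 of 43, or 48.8%. None of the introns with rows in both conditions belonged to GI, RVE8, PRR5 or TOC1. Among them the count was 4 of 16 after deproteinization, or 25.0%, and 3 of 15 in vivo, or 20.0%. No such share was computed over all shared introns of the series. Where −1 was scored in both conditions, their mean was 0.606 after deproteinization and 0.560 in vivo. The clock introns among them had 0.411 and 0.387.

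Rows that share a 5′ss repeat the same nucleotides. Counted once per site, 29 of 51 sites scored at least 0.6 and 18 had the top score. The 57 rows included 21 at the top score, 12 of them in GI, and the other genes had 9 of 43 where the table had 31.9%.

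RVE8 showed a clear division. Introns 7 and 8 and the alternative to intron 7 had 1 at −1, and introns 1, 2, 4 and 5 and the alternative to intron 4 had 0.912 to 0.970. Intron 3 had 0.218, and its GC 5′ss 13 nt upstream had 0.324. Intron 4, which also begins with GC, had 0.920.

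In TOC1 introns 1, 3 and 5 and the alternative to intron 3 had the top score. The alternative 5′ss of intron 1 had 0.753, intron 2 had 0.498 and intron 4 had 0.253. In PRR5 both rows of intron 1 had 1, intron 5 had 0.753, intron 2 had 0.345 and intron 4 had 0.315.

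**Figure D2:**
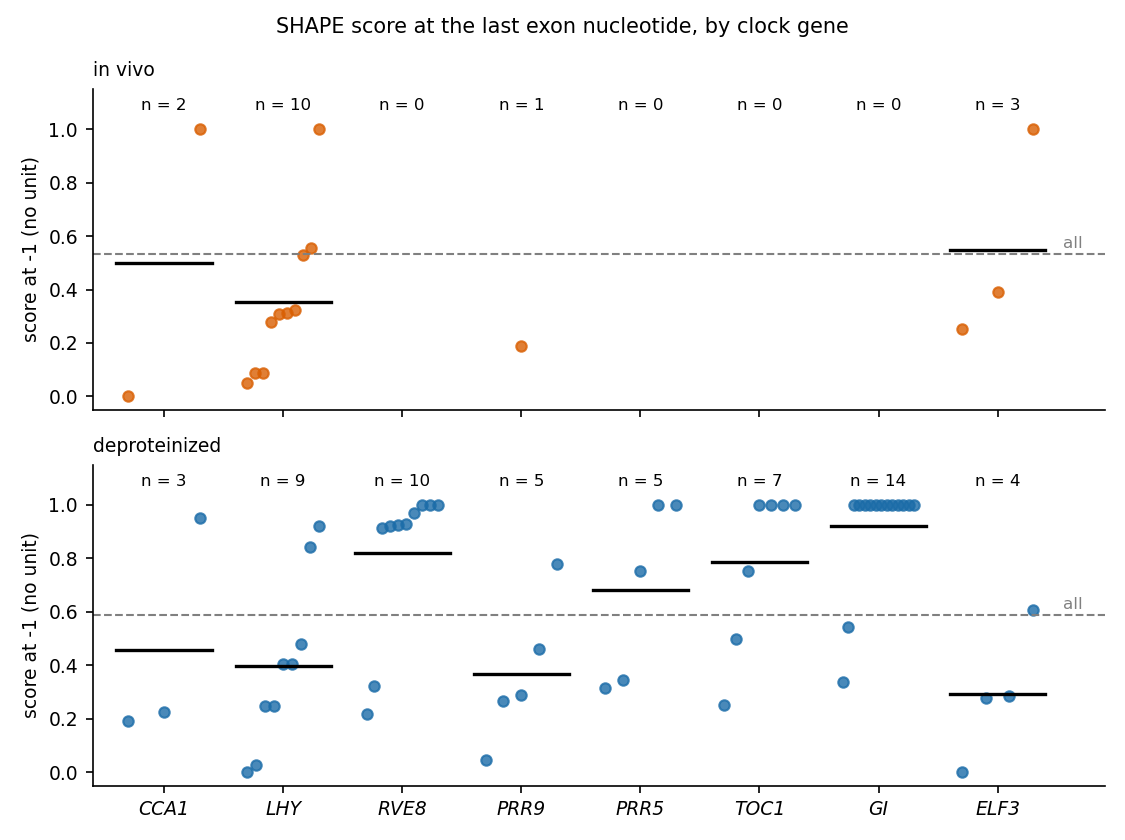
Score at −1 (no unit) of every clock intron in vivo (above) and after deproteinization (below), 1 point per row. Black lines are gene means and the dashed line is the mean over all introns of the table, 0.535 in vivo and 0.590 after deproteinization; 12 of the 14 GI points lie at 1, whereas most LHY points lie below the dashed line in both panels.

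In vivo the clock genes with rows were low at −1. A score of at least 0.6 was found in 3 of 16 introns, against 42.2% of the table, and the same 3 had the top score, against 27.0%. They were CCA1 intron 4, LHY intron 2 and ELF3 intron 3. Counted once per 5′ss, these were 3 of 14 sites. The score exceeded the flanks in 7 of 16 introns, against 60.8%. The mean at −1 was 0.398 ± 0.337 (SD over introns), below the 0.535 of all introns, and 10 of these 16 introns belonged to LHY.

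LHY, the dawn repressor, had the lowest gene mean among those with several introns in vivo, 0.353 ± 0.285 over 10 introns, and only intron 2 reached 0.6. Of 472 genes with at least 10 introns scored in vivo at −1, 422 had a higher mean. Introns that share a 5′ss were counted separately here. In LHY both rows of intron 7 share 1 site, with 0.0878, and the alternatives inside intron 5 share another, with 0.308 and 0.324. The rows of LHY also carried 1 recurring intermediate score at a median of 29.5% of their nucleotides in vivo, against 32.5% over all introns, and in 3 of the 10 rows −1 itself lay within 0.001 of that score.

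The nucleotide at −2 was close to the background. It exceeded the flanks in 8 of 16 clock introns in vivo, against 44.8% of the table, and in 32 of 57 after deproteinization, where the table had 56.1%. A score of at least 0.6 was found in 2 of 16, against 18.7%, and in 14 of 57, against 25.2%. LHY intron 2 and ELF3 intron 3 had 1 at both −2 and −1 in vivo, as did GI intron 5 and RVE8 intron 8 after deproteinization.

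The introns with the lowest scores at −1 after deproteinization included some with a high −2. ELF3 intron 1 had 0 at −1 and 0.977 at −2, and LHY intron 2 had 0.0262 and 0.605. The CCA1 row within an exon, which was not among the lowest, had 0.227 and 0.944. Its 0.227 was the recurring score of the row, in which 52 of 192 nucleotides had no score. PRR9 intron 5 was low at both, with 0.0473 and 0.254.

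Intron 2 of PRR9, PRR5 and TOC1 also had −2 above −1, a pattern that was chosen after its values were seen. The 20 nt printed for PRR9 and PRR5 were identical at 17 positions, and those of TOC1 matched either of them at 15. All ended the exon with AA. The score at −2 was above that at −1 in each: 0.720 against 0.463 in PRR9, 0.591 against 0.345 in PRR5 and 0.835 against 0.498 in TOC1. Over all 1875 deproteinized introns ending in AA, −2 was above −1 in 37.2%.

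The 16 introns scored in both conditions came from LHY (9), CCA1 (3), ELF3 (3) and PRR9 (1), and 15 of them had a score at −1 in both. The difference at −1, deproteinized minus in vivo, was at least 0.3 upward in 2 introns and at least 0.3 downward in 3. Over all 14871 shared introns the shares were 21.6% upward and 14.1% downward. The mean difference was 0.0234 with an SD of 0.429 over introns, against 0.0457 and 0.381 for all.

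Of the 5 introns that differed by that much, 4 were in LHY and 1 in ELF3. LHY intron 2, in the 5′ UTR, had 1 in vivo and 0.0262 after deproteinization. LHY intron 8, in the coding part, ran the other way with 0.0518 in vivo and 0.923 after deproteinization. The first intron of LHY, also in the 5′ UTR, had 0.311 and 0.843.

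LHY intron 5, which is 660 nt long, had 0.529 in vivo and 0 after deproteinization at −1. At −2 it ran opposite, with 0.468 and 1. ELF3 intron 3 had 1 at −1 in vivo and 0.609 after deproteinization, and at −2 it had 1 and 0.360. Because scores are scaled within an intron and a condition, such a difference is one of rank within the intron.

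The remaining introns differed by less than 0.3 at −1. CCA1 intron 4 had 1 in vivo and 0.952 after deproteinization, and ELF3 intron 2 had 0.390 and 0.279. The alternative to PRR9 intron 3 had 0.189 and 0.268, and LHY intron 3 had 0.279 and 0.479. In LHY intron 7 both rows had 0.0878 in vivo and 0.248 after deproteinization.

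**Figure D3:**
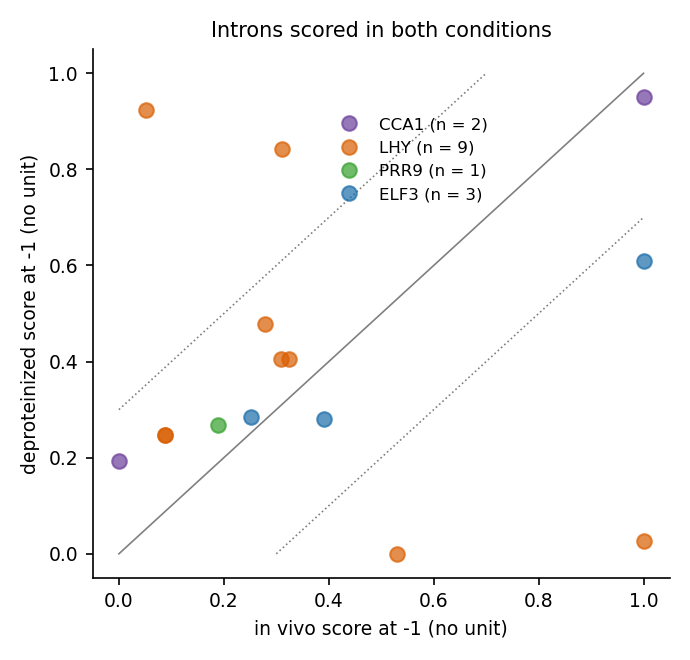
Score at −1 in vivo (horizontal) and after deproteinization (vertical), both with no unit, for the 15 clock introns scored at −1 in both, with the genes in colour and 2 LHY points on top of each other. The solid line marks equal scores and the dotted lines a difference of 0.3; 2 LHY introns lie above the band, and 2 LHY introns and ELF3 intron 3 lie below it.

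Over whole introns the conditions were loosely alike. The Pearson correlation over the nucleotides of an intron had a median of 0.264 over the 16 clock introns, against 0.315 over 15678 shared introns of the series. It was lowest in LHY intron 5, with 0.109 over 760 nucleotides, and highest in a CCA1 row, with 0.457 over 109. Nucleotides of 1 intron share reads and scaling, so these are descriptions only.

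CCA1 intron 4 is the intron known to be retained in the splice form CCA1β, which lacks the MYB domain. It spans chr2:19246385-19246862 (478 nt). A proximal 5′ss 367 nt downstream shares its 3′ss and gives an intron of 111 nt, and both forms are in RefSeq. Read in the long row, on 1 scale, the distal site had 1 at −1 in vivo and the proximal site 0. After deproteinization they had 0.952 and 0.194. The distal site thus stood among the highest nucleotides of the intron in both conditions, and the proximal one did not in either.

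Both sites have AG before the junction and match the consensus of the U1 snRNA at 6 of 9 positions. At −2 the order was the reverse in vivo, with 0.285 at the distal and 0.678 at the proximal site. In vivo 145 nucleotides of this row had no score, 132 of them in a run from nucleotide 63 to 194 of the intron, against 2 after deproteinization. In the deproteinized profile the same region held many high scores, with 21.0% of nucleotides 101 to 200 at 0.6 or above, whereas nucleotides 301 to 400 had 0%. The exon after the intron had the highest mean score of the stretches compared. Over the 38 and 48 of its first 50 nt with a score, it was 0.499 in vivo and 0.534 after deproteinization. The intron had 0.340 and 0.281. The study's methods use only reads over exon-intron junctions and introns, to reflect RNA before splicing. They leave out the AG at the 3′ss, because reads just past it could not be assigned to spliced or unspliced RNA. Whether these exon scores include spliced RNA was not tested.

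**Figure D4:**
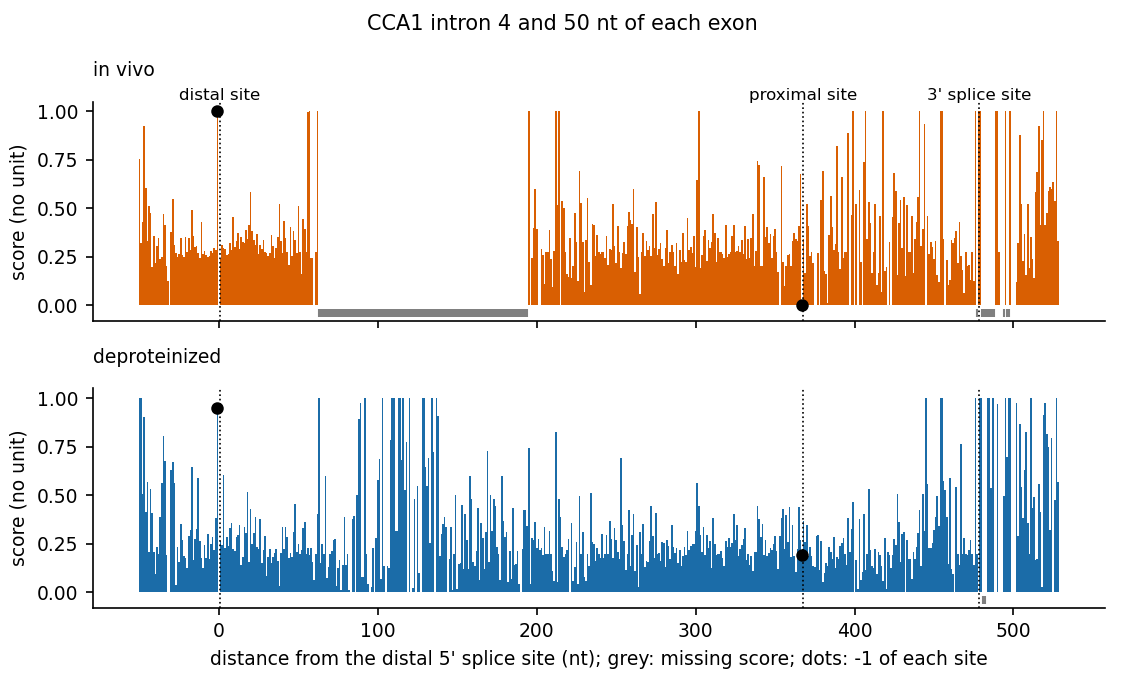
Scores (no unit) along CCA1 intron 4 and 50 nt of each exon, by distance in nucleotides from the distal 5′ss, in vivo above and deproteinized below; grey marks missing scores and black dots −1 of each 5′ss. The dot of the distal site stands at 1 and 0.952, and that of the proximal site at 0 and 0.194.

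The other alternative 5′ss could be compared in the same way, both sites being read in the longer row. After deproteinization the distal site was higher at −1 in 5 of 7 pairs, against 52.7% of 3340 pairs in the table. The site of the reference intron was higher in 5 of 7, but no share over the table was computed for this count, so it is not read further. In vivo the distal site was higher in both pairs of clock introns, CCA1 intron 4 and LHY intron 5, against 53.8% of the table. In LHY intron 5 the lower value was the recurring intermediate score of the row.

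GI intron 1 lies in the 5′ UTR and had 1 at its distal site and 0.683 at the site 102 nt downstream. TOC1 intron 1 had 1 and 0.753 at sites 13 nt apart. PRR9 intron 2, whose sites are 8 nt apart, had 0.463 and 0.291. Splicing of PRR9 is known to depend on the arginine methyltransferase PRMT5.

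In PRR9 intron 3 and LHY intron 5 the proximal site was higher after deproteinization, and in RVE8 intron 3 the alternative was above the reference site. In PRR9 intron 3 the proximal reference site had 0.651 (0.779 in its own row) and the distal alternative, 80 nt upstream in the exon, 0.268. In RVE8 intron 3 the reference site, which is proximal, had 0.230 and the alternative 0.324. In LHY intron 5 the distal reference site had 0 after deproteinization and the inner site, 534 nt downstream, 0.480, whereas in vivo they had 0.529 and 0.426. The 0.426 is the recurring score of that row, held by 33.4% of its nucleotides.

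Alternative 3′ss gave rows with a shared 5′ss in 6 cases, 2 of them in both conditions. The acceptors were 3 nt apart in LHY intron 7, 4 nt in TOC1 intron 3, 9 nt in PRR5 intron 1, 17 nt in RVE8 intron 4, 22 nt in RVE8 intron 7 and 36 nt inside LHY intron 5. Scores at −1 were equal or nearly so within each case, the widest gap being 0.308 against 0.324 inside LHY intron 5 in vivo.

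Overlapping rows largely repeat the same measurements. Of 21 pairs of overlapping clock introns, 6 in vivo and 15 deproteinized, 6 had the same score within 0.001 at every shared nucleotide. In the others the shared scores differed in part, with correlations of at least 0.974. In LHY intron 5 and its alternative of 126 nt in vivo, the ratio of shared scores between 0 and 1 was 0.723 at the 10th and the 90th percentile alike.

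LHY intron 5 and ELF3 intron 2 were the clock introns of at least 500 nt, and both were scored in both conditions. LHY intron 5 (chr1:35964-36623) was even along its length. In bins of 100 nt its mean score ran from 0.356 to 0.462 in vivo and from 0.366 to 0.448 after deproteinization. However, 1 recurring score was held by 33.4% of the nucleotides of its row in vivo and 30.5% after deproteinization. In the row of ELF3 intron 2 these shares were 12.6% and 8.67%. The exon after LHY intron 5 had a mean of 0.596 in vivo and 0.430 after deproteinization.

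ELF3 intron 2 (chr2:11060837-11062016, 1180 nt) was uneven in vivo. Its first 500 nt had bin means of 0.258 to 0.289, and nucleotides 501 to 600 and 601 to 700 had 0.431 and 0.488. In these bins 21.0% and 38.2% of nucleotides had at least 0.6, against 0% to 4.00% in the first 500 nt. In the later bins the share ran from 0% at nucleotides 1101 to 1180 to 21.6% at 1001 to 1100, of which 51 had a score. Nucleotides 701 to 800 had 19.4%. After deproteinization the profile was flatter, with bin means from 0.325 to 0.457, and the highest mean lay at nucleotides 501 to 600. The inner row of 80 nt (chr2:11061687-11061766), which is not in RefSeq, had 0.251 in vivo and 0.284 after deproteinization at −1, below its flanks in both.

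Toward the 3′ss, nucleotides −7 to −4 of the intron were compared with −20 to −8, a stretch rich in pyrimidines in most introns. The nearer stretch was lower in 12 of 17 clock introns in vivo, against 60.5% of the table, and in 36 of 56 after deproteinization, against 63.9%. GI had 11 of 14, with a mean difference of −0.0906 ± 0.0888 (SD over introns), and PRR9 had 5 of 5. LHY had 4 of 9 after deproteinization. Rows that share a 3′ss repeat the same nucleotides, as PRR9 introns 2 and 3 and GI intron 1 do with their alternatives. With 1 row per splice site the mean difference over clock introns was −0.0201 in vivo, against −0.0214 over all rows. After deproteinization it was −0.0421, against −0.0467.

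The branch site was located by motif only, as the A of the CURAY motif (C, U, A or G, A, C or U) nearest the 3′ end and 15 to 50 nt from it. It was scored in 3 clock introns in vivo and in 20 after deproteinization. The A exceeded nucleotides 3 to 10 nt away in 1 of 3, against 59.1% of the table, and in 15 of 20, against 60.9%. GI held 9 of the 20, 2 of them the same A in the overlapping rows of intron 1, and 8 exceeded their flanks, with a mean A score of 0.696 ± 0.321 against 0.348 ± 0.0869. The A of intron 12 had 0. Without GI the count was 7 of 11, or 63.6%. A motif match is no proof of a branch site.

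Poly(A) windows of 100 nt were scored in vivo for GI and TOC1, 1 each, with scores halved here to run from 0 to 1. The 30 nt from −35 to −6 of the site are printed from the RefSeq genome (TAIR10.1). The stretch from −28 to −17, which often holds the poly(A) signal in plants, is in capitals.
GI, chr1:8067630-8067659, plus: tctgtacATTTTAAATGACgaagtagctca
TOC1, chr5:24678467-24678496, plus: tccttccAGTATCATTTACttgaatcttgt

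Neither window held AAUAAA on its strand. In GI the mean of −28 to −17 was 0.476, against 0.397 for the rest of the window, and −4 to +1 had 0.444. In TOC1 the means were 0.406 and 0.399, against 0.327 for the rest. Both stretches were above the rest in both genes, where the table had 52.6% for the first and 49.1% for the second. The differences, 0.0789 and 0.0475 in GI and 0.0797 and 0.0718 in TOC1, were smaller than their SD over all windows, 0.104 and 0.128. With the site 1 nt further on, −4 to +1 lay below the rest in both genes, with a difference of −0.0026 in GI and −0.0477 in TOC1.

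At the site itself GI had 1 and TOC1 0.355, where all windows had a mean of 0.413. The signal region was uneven in both. In GI the nucleotides −26 and −23 had 1 and −27, −25 and −19 had 0, and in TOC1 −18 had 1 and −19 had 0.897.

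**Figure D5:**
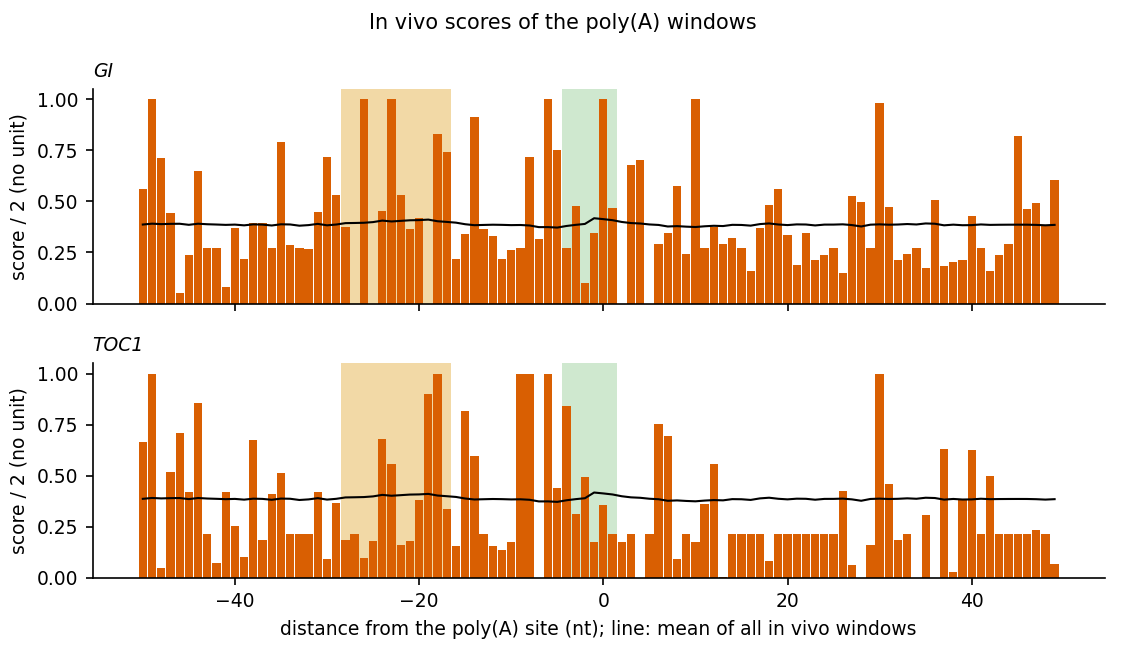
In vivo scores (halved, no unit) of the GI and TOC1 poly(A) windows by distance in nucleotides from the site, with −28 to −17 shaded tan and −4 to +1 shaded green, and the mean of all windows as a black line. GI has the top score at the site, and both genes have single high nucleotides within the tan stretch beside low ones.

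Another 13 genes of the clock were looked up for comparison, and 7 of them had intron rows. RVE4, a close relative of RVE8, had 12 introns in each condition, and −1 had at least 0.6 in 9 of 12 in both, with medians of 1. LNK1, which acts with the RVE proteins, had 8 of 13 after deproteinization and 2 of 3 in vivo. JMJ30, a histone demethylase, had 1 of 7, LUX of the evening complex 1 of 3, AT5G52660 2 of 3 and the F-box protein ZTL 0 of 2, all after deproteinization. The single intron of PRR3 had 0 in vivo. Over these genes the count was 11 of 16 in vivo, against 42.2% of the table, and 21 of 40 after deproteinization, against 49.7%. RVE4, with 9 of the 11 in vivo, carried most of that, as LHY did for the low count in vivo among the genes above. ELF4, BOA, FKF1 and LKP2 had no row, and LNK2 and CHE had poly(A) windows only.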

How the data were processed

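Nuclear RNA of both conditions was sequenced with and without NAI. Per the labels and the study's methods, the authors checked reads with FastQC 0.11.5, trimmed them with cutadapt 1.14, mapped them to TAIR10 with HISAT2 2.1.0 using the isoforms of AtRTD2, retained unsplit reads with 1 mapping place over introns and exon-intron junctions, merged replicates, counted stops of reverse transcription and normalized reactivities. The formula was not given in the sources used here. The deposited scores are scaled within each row, from 0 to 1 for introns and 0 to 2 for poly(A) windows. Read depth is unknown, so no counting error could be given.

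Rows run 5′ to 3′ and hold 50 nt of exon on each side of the intron; 97.1% of deproteinized introns with a strand read GU-AG in this order. The poly(A) site was taken as nucleotide 51. A correlation needed 20 nucleotides scored in both conditions. Sequences and intron numbers came from RefSeq (TAIR10.1), from the transcript with the most introns and, among these, the longest coding span. All genes were named; introns were named where they had rows in both conditions, were at least 500 nt long, overlapped another row, or were among the 3 highest or 3 lowest at −1, and others, chosen after their values were seen, where a gene is described intron by intron. The genes, lists and measures were chosen with earlier results of these data known. The measures were tested on simulated rows. Alternatives covered zeros, the recurring score, medians, flanks, thresholds, motifs and the site position. Python 3.11.15, NumPy 2.4.6, pandas 2.3.3, SciPy 1.17.1 and Matplotlib 3.10.9 were used.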

Additional observations from a re-analysis of the deposited data

How the results depend on the processing

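Each condition is 1 merged profile, so no error between samples is known, no group of samples was screened for outliers, and the depth behind a single score is unknown. No paired analysis was possible because each condition has 1 merged profile and no test was made. Of 60 differences, means and correlations recomputed under alternatives, 22 moved by over 1.5 times, and 6 of these changed sign. The cause was not tested.

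The choice of introns moved the deproteinized values most. Among introns with rows in both conditions, 4 of 16 scored at least 0.6 at −1 after deproteinization, against 33 of 57 reported. There −1 minus flanks was 0.0575 in place of 0.322, and the branch A minus flanks 0.0506 in place of 0.241. As a median over introns −1 minus flanks was 0.528. With the motif YUNAY the deproteinized branch difference was 0.146.

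In vivo, 5 clock introns reached a threshold of 0.5 at −1, against 3 at 0.6. The median of −1 minus flanks was −0.0158. The branch A minus flanks, over 3 introns, had a median of −0.0984, was −0.0017 with YUNAY, and was 0.183 with zeros left out. The mean difference at −1 between conditions, 0.0234, was −0.0036 without the recurring score and 0.0805 as a median. The median correlation between conditions was 0.151 over intron nucleotides only.

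In the poly(A) windows the difference of −28 to −17 from the rest was 0.228 in GI with zeros left out. With the site at nucleotide 50, −4 to +1 minus the rest was 0.0962 in GI and 0.112 in TOC1, and at nucleotide 52 it was −0.0026 and −0.0477.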
